A study of Mus musculus with 20 samples.

Results

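The 10 genes described here, known from hair follicle stem cells, were followed through UV-induced carcinogenesis in mouse skin. The members, chosen by symbol from the deposited count table, were Sox9, Lgr5, Lgr6, Lhx2, Lrig1, Cd34, Nfatc1, Runx1, Foxc1 and Tcf7l1, and all 10 were found among the 22090 genes. RNA-seq had been performed on 20 back skin tissues of 8 female SKH-1 hairless mice. The mice were 7 months old when divided into groups, and 4 were left unirradiated while 4 received UVA and UVB radiation from a solar simulator. Tissues were taken at the end of the weeks of irradiation, when the mice were older. Normal skin (NS, n = 8) combined 1 tissue of each unirradiated mouse and 1 of each irradiated mouse, and the labels do not tell them apart. Actinic keratoses (AK, n = 8) were of grade 1 and grade 2 by the study's methods. Its pathological classification names them papillomas and gives some a grade above 2. AK and cutaneous squamous cell carcinoma (cSCC, n = 4) came from the 4 irradiated mice only. Several tissues therefore share a mouse that the labels do not name, within a group and across groups. The tests treat tissues as independent, so their p-values may be too small or too large.

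The hair follicle keeps a reserve of slowly dividing stem cells in a niche called the bulge, from which a new follicle is rebuilt in every hair cycle. Sox9 and Lhx2 are transcription factors that maintain bulge identity, Nfatc1 and Foxc1 are factors that hold bulge cells quiescent, Tcf7l1 represses Wnt targets in the absence of a Wnt signal, and Runx1 promotes entry of stem cells into growth. Cd34 encodes a surface sialomucin used to sort mouse bulge cells, and is also carried by endothelial cells, dermal fibroblasts and mast cells. Lgr5 and Lgr6 encode R-spondin receptors of the lower bulge and hair germ and of the isthmus, respectively, and Lrig1 encodes a membrane protein of the upper follicle that restrains EGF receptor signaling. SKH-1 mice lose their hair after the first hair cycle, and their follicles are replaced by utricles and dermal cysts, so the follicle compartment of this strain is not that of haired mice. In bulk tissue, fewer cells of a type and less RNA per cell cannot be told apart.

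The libraries held 1624325 to 6295575 counts in NS, 867219 to 14055206 in AK and 775750 to 7095102 in cSCC. Levels are given as CPM, the counts of a gene relative to its library, scaled by TMM factors, which correct for differences in library composition, and multiplied to a common total. A level of 3 counts, taken as the smallest that could be detected, ranged from 0.225 to 3.78 CPM and covers counting error only. The cSCC samples were not alike. Replicate 20 held 36007 CPM of 8 lung epithelium markers against 13.6 to 295 CPM in the 19 other samples, and replicate 21 held 53884 CPM of 8 heart muscle markers against 9.57 to 158 CPM elsewhere. Replicate 18 had the lowest TMM factor, 0.5086 against 0.8522 to 1.216 in the rest. Results on the members in cSCC are therefore given with and without these samples where this changes a call. For other genes, only total counts of list genes are given in this way.

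Genes of the follicle and of its products are set beside the members here. The bulge keratin gene Krt15 belongs to a list of 13 other bulge genes, whose summed level was 1057 to 2076 CPM in NS, 1203 to 2502 CPM in AK and 530 to 1162 CPM in cSCC. In many samples a large part of this sum came from 1 gene, Postn, with 305 to 1309 CPM in NS, 832 to 2077 CPM in AK and 124 to 623 CPM in cSCC. The sum is therefore no measure of Krt15 or of bulge cells alone. The 7 measured genes of the hair shaft and inner root sheath summed to 14.3 to 475 CPM in NS, and Krt27, Krt31, Krt33a and Krt35 were at 0 counts in all 4 cSCC samples. The summed level in cSCC was 77.1, 20.7, 30.7 and 1.16 CPM in replicates 18 to 21, of which 3 lay inside the NS range. The 11 hair germ and hair matrix genes summed to 35.3 to 67.4 CPM in cSCC and 43.5 to 107 CPM in NS, and each had counts in cSCC.

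The start regions of the members that passed a test in some comparison are printed here because their base composition differs widely and the factors among the members bind DNA. The letters are RefSeq promoters on GRCm38.p6, read 5′ to 3′ on the strand of the gene from 250 to 21 bases before its start. Capitals mark matches on either strand to the 6-base cores ACAAAG (SOX), TAATTA (LHX), TGTGGT (RUNX), CTTTGA (TCF/LEF), GGAAAA (NFAT) and TAAACA (FOX), of which the SOX core on its other strand shares its first 5 letters with the TCF/LEF core.
Foxc1 (chr13:31806396-31806625, plus strand): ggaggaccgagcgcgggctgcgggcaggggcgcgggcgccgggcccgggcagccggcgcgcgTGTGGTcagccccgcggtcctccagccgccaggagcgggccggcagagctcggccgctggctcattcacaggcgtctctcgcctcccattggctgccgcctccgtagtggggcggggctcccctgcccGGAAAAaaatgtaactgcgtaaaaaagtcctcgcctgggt
Lgr6 (chr1:135105297-135105526, minus strand): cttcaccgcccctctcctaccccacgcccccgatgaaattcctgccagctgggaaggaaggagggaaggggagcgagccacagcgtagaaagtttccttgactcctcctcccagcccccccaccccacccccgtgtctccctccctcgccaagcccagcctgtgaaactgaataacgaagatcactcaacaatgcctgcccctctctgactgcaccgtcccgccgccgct
Cd34 (chr1:194938571-194938800, plus strand): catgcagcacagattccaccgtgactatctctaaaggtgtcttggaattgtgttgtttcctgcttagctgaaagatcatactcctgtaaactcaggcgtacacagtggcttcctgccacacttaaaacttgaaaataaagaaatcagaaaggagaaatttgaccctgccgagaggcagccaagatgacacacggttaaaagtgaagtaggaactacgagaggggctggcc
G and C made up 73.0% of the Foxc1 stretch, 63.0% of the Lgr6 stretch and 45.7% of the Cd34 stretch, against a mean of 52.9% over 32851 promoters. The Foxc1 stretch held 1 RUNX core and 1 NFAT core, and the Lgr6 and Cd34 stretches held none of the 6 cores. Over all promoters, 13.2% of stretches of this length held a RUNX core, 19.1% an NFAT core and 11.5% to 15.4% a FOX, TCF/LEF or SOX core, and 4.7% held an LHX core. A match is only a match of letters.

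Levels were compared between genes per kilobase of exon, using GENCODE M21 exon lengths on GRCm38. In NS, Sox9 had the highest mean level per length (11.9 ± 9.63 CPM per kb, SD, n = 8), followed by Cd34 (9.38 ± 6.92) and Foxc1 (4.88 ± 3.5). Nfatc1, Lrig1, Runx1 and Lgr6 lay between 2.67 and 1.49 CPM per kb, and Tcf7l1, Lgr5 and Lhx2 were lowest at 0.551, 0.535 and 0.148 CPM per kb. No neighbours in this order differed by more than the sum of their SDs. In AK the order began with Cd34 (7.53 ± 3.52 CPM per kb) and Sox9 (4.49 ± 1.96), and Foxc1 followed Nfatc1 and Runx1 at 1.64 ± 0.979. In cSCC, Cd34 led with 21.5 ± 12.1 CPM per kb (SD, n = 4) and Sox9 followed with 3.88 ± 2.84, whereas Foxc1 came after Tcf7l1 at 0.484 ± 0.791.

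**Figure D1:**
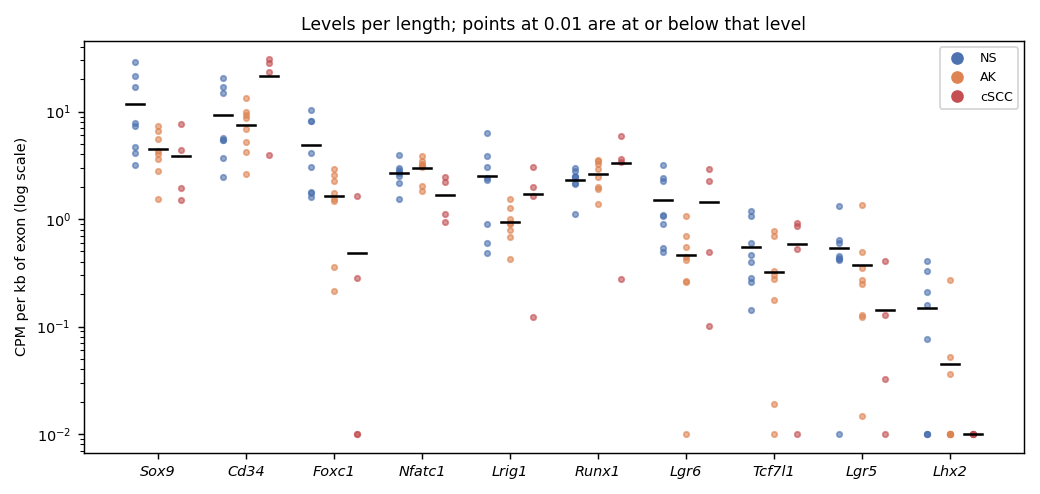
Level of each gene per kilobase of exon (CPM per kb, log axis) in every sample, with genes ordered by their NS mean. Points are samples colored by group, black bars are group means, and values at or below 0.01 are drawn at 0.01. Cd34 has the highest cSCC mean (21.5 CPM per kb) and Lhx2 the lowest level in each group.

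To ask how the stem cell genes change from NS to AK, edgeR was fitted to the 16 samples over 11677 genes and its quasi-likelihood test applied, with Benjamini-Hochberg adjustment over all of them. A gene was called when its adjusted p-value was under 0.05 and its fold change was above 1.5 or below 0.67. Only Lgr6 was called, lower in AK. Sox9, Foxc1 and Lrig1 had lower estimates of like size that did not pass after adjustment, and the intervals of Lgr5, Cd34, Nfatc1 and Runx1 included 0. Of 8 tested members, 1 was called lower and 0 higher, against 2.38% and 2.26% of all genes tested (4.64% in either direction, 264 genes higher and 278 lower, or 176 and 481 when scaled by library size alone), and 4 had an unadjusted p-value under 0.05 from the same test, against 24.6% of all genes. The median log2 fold change of the tested members was -1.02 and that of all genes -0.04. None of the 8 had groups that did not overlap, against 0.394% of all genes higher and 0.128% lower in this way. Lhx2 and Tcf7l1 were left out by the filter on low counts in each of the 3 comparisons.

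The R-spondin receptor gene Lgr6 had a lowest, median and highest level of 3.4, 7.43 and 21.8 CPM in NS, and of 0, 2.97 and 7.37 CPM in AK. Every AK sample was below the NS median and 5 of 8 were below all NS samples, though the groups overlapped. Its log2 fold change was -1.59 with a standard error of 0.46, and edgeR gave an adjusted p of 0.0494. The call was at the edge of the threshold. Among the 16 fits that each left out 1 sample it passed only without NS replicate 8, NS replicate 9 or AK replicate 11, with adjusted p from 0.0274 to 0.102 over the 16 edgeR fits, and the log2 fold change stayed between -1.87 and -1.34.

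Sox9, the bulge identity factor, had a lowest, median and highest level of 13.1, 31.4 and 121 CPM in NS and of 6.31, 17.2 and 30.6 CPM in AK. The 4 highest NS samples were above all AK samples. Its log2 fold change was -1.41 (95% interval -2.31 to -0.52, adjusted p = 0.0591 in the edgeR fit). The quiescence factor Foxc1 showed 9.44, 21 and 60.8 CPM in NS and 1.26, 9.59 and 17.1 CPM in AK. Here 5 NS samples were above all AK samples and 4 AK samples below all NS samples, with a log2 fold change of -1.53 (95% interval -2.49 to -0.57, adjusted p = 0.0572 from the same test). Lrig1, the restrainer of EGF receptor signaling, showed 2.71, 13.1 and 35.6 CPM in NS and 2.4, 5.07 and 8.67 CPM in AK. Its log2 fold change was -1.40 (95% interval -2.34 to -0.46, adjusted p = 0.0701 from edgeR's test), and 144 of its 5585 exon bases are shared with other genes. For Sox9, Lgr6, Lrig1 and Foxc1 every AK sample lay below the NS median, which held for 8.95% of all genes tested. Each of these 4 genes was also less spread in absolute terms in AK, where the SD of Sox9 was 8.11 CPM against 39.8 CPM in NS. As a percentage of the mean, the SD was smaller in AK for Sox9, Lrig1 and Foxc1. For Lgr6 it was not, at 69.8% in AK and 66.3% in NS.

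**Figure D2:**
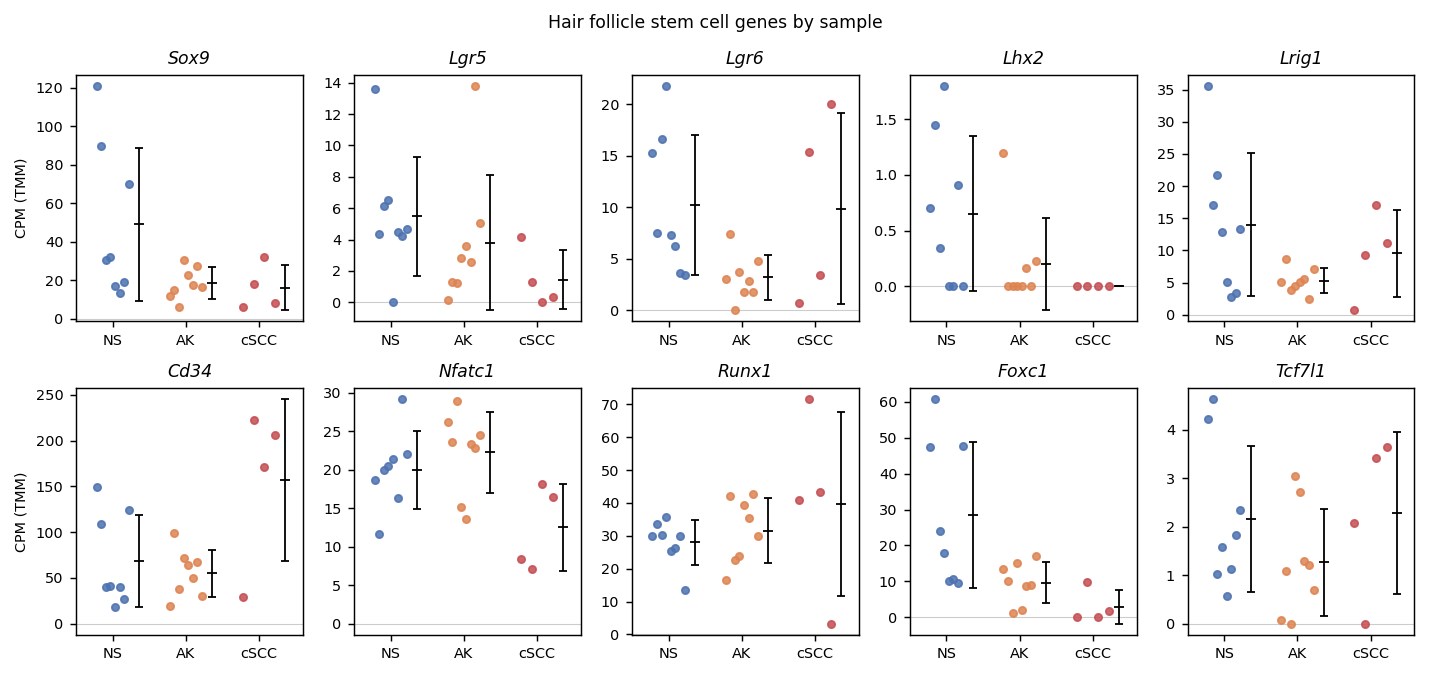
Level of the 10 genes in each sample (CPM with TMM factors, linear axes that differ between panels), with points for samples and black bars for the group mean and SD (n = 8, 8 and 4). Sox9, Lrig1 and Foxc1 are spread widely in NS and lie below the NS median in every AK sample, and 3 of 4 cSCC samples have more Cd34 than any NS or AK sample.

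For Sox9, Foxc1 and Cd34, the wide spread in NS came largely from the same tissues. Replicates 1, 2 and 9 had 121, 89.5 and 70.2 CPM of Sox9 against 13.1 to 32.2 CPM in the 5 other NS samples. They also had the most Foxc1, with 47.3, 60.8 and 47.7 CPM against 9.44 to 24.1 CPM. Cd34 repeated this with 149, 109 and 124 CPM against 18 to 41.2 CPM. Lrig1 followed only in part. It had 35.6, 17.1 and 13.4 CPM in replicates 1, 2 and 9, but 21.7 CPM in replicate 4 and 12.8 CPM in replicate 5. Replicates 1, 2 and 9 were also highest in NS for the summed level of 8 sebocyte markers (3647, 4576 and 2423 CPM against 1007 to 1584 CPM). Krt79 is 1 of these markers, with 1613, 1313 and 1623 CPM in the same replicates against 562 to 790 CPM. In replicate 9 most of the sebocyte sum was therefore Krt79. The 8 fibroblast markers summed to 6056, 7807 and 4765 CPM in replicates 1, 2 and 9 against 1033 to 3162 CPM. Of the 6 basal keratinocyte markers, such as Krt5 and Krt14, replicates 1, 2 and 9 held 5526, 4748 and 5637 CPM against 7318 to 16094 CPM in the other NS samples. The part of these tissue differences in the comparison of AK with NS was not tested. Without NS replicate 1 the log2 fold change of Sox9 was -1.07, and over the 16 fits without 1 sample its adjusted p ranged from 0.0334 to 0.129.

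Lgr6 had another order among the NS samples. Its highest NS levels, 21.8 and 16.6 CPM, were those of replicates 5 and 4, which also held the most hair shaft and inner root sheath transcripts, with 475 and 371 CPM against 14.3 to 117 CPM in the other NS samples. NS replicates 1, 2 and 9, high in Sox9, had 15.3, 7.53 and 3.4 CPM of Lgr6, so that replicate 1 was among the 3 highest and replicate 9 was the lowest. The 8 AK samples held 16.3 to 296 CPM of the hair shaft and root sheath genes, and the one with 296 CPM, replicate 14, had 1.81 CPM of Lgr6.

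**Figure D3:**
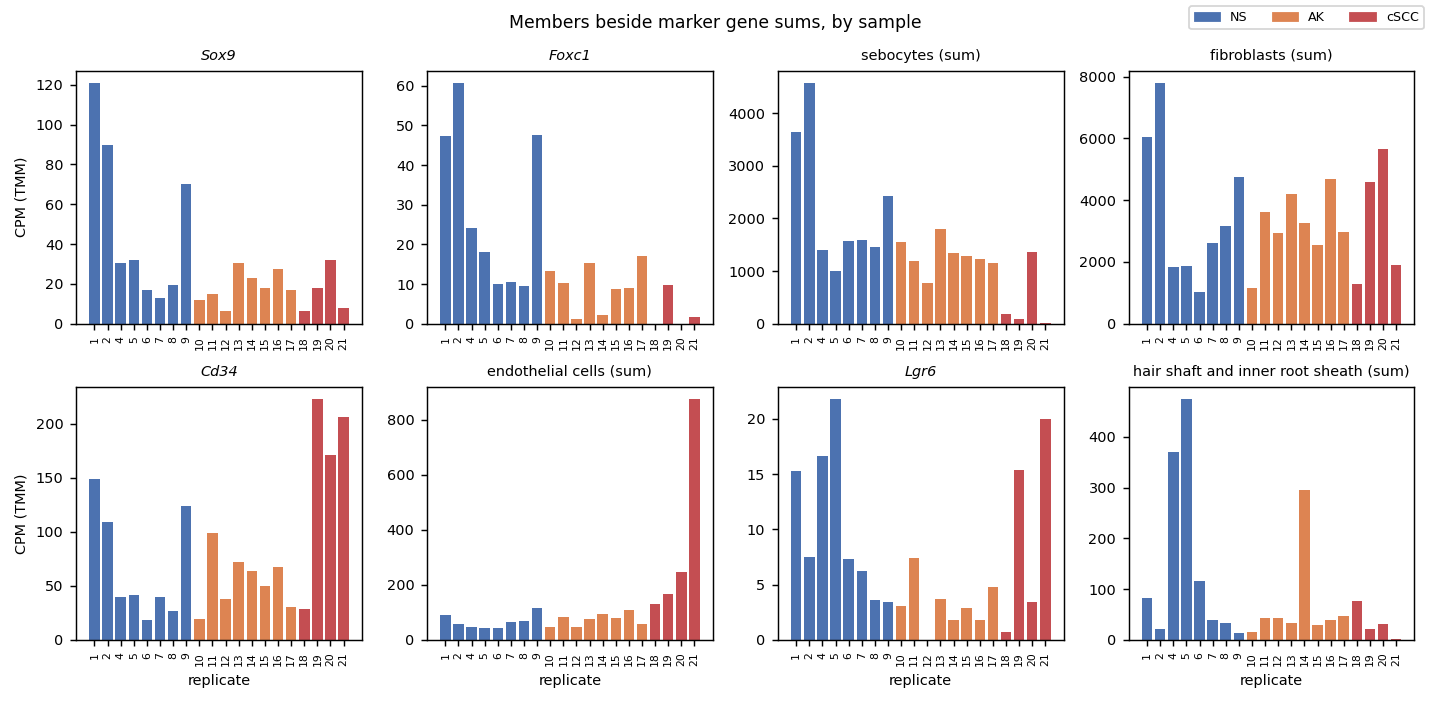
Bars give the CPM of Sox9, Foxc1, Cd34 and Lgr6 and the summed CPM of marker genes of sebocytes, fibroblasts, endothelial cells and hair shaft in each of the 20 samples, ordered by replicate number and colored by group. NS replicates 1, 2 and 9 are highest in NS for Sox9, Foxc1, Cd34, sebocyte and fibroblast genes, and the 4 cSCC samples are highest for endothelial genes (132 to 875 CPM).

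Coordination among the members was tested inside each group, so that differences between NS, AK and cSCC did not enter. Differences between unirradiated and irradiated mice within NS, or between grades within AK, could still enter. Over the 45 pairs of members within NS and the 45 within AK, 0 of 90 Pearson correlations of log2(CPM + 1) passed (exact permutation test over all pairings, two-sided, adjusted over the 90 pairs). Unadjusted p-values under 0.05 were obtained for 10 pairs in NS and 6 in AK, and 0 Spearman correlations passed. Since NS replicates 1, 2 and 9 stood apart for Sox9, Foxc1 and Cd34, no single coefficient is given for these genes.

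The other members did not separate AK from NS. Lgr5, the R-spondin receptor of the lower bulge, had a median of 4.57 CPM in NS (0 to 13.6 CPM) and 2.68 CPM in AK (0.15 to 13.8 CPM), with a log2 fold change of -0.65 (95% interval -1.99 to 0.70). Cd34 had a median of 40.6 CPM in NS and 57.1 CPM in AK, while its mean was lower in AK (54.9 ± 25.7 against 68.4 ± 50.4 CPM, SD, n = 8 each), with a log2 fold change of -0.34 (95% interval -1.19 to 0.51). Nfatc1 and Runx1 were the steadiest members. Nfatc1 had 20 ± 5.05 CPM in NS and 22.3 ± 5.27 CPM in AK, and its interval of -0.29 to 0.55 on the log2 scale lies within the fold change limits. Runx1 had 28 ± 6.84 CPM in NS and 31.6 ± 9.79 CPM in AK, with an interval of -0.31 to 0.62.

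Lhx2 and Tcf7l1 were at the limit of detection. The bulge factor Lhx2 had 21 counts over the 8 NS samples, 18 over the 8 AK samples, of which 16 were in the deepest library, and 0 in the 4 cSCC samples. The highest level of Lhx2 was 1.8 CPM, and its NS median was 0.522 CPM with 3 NS samples at 0. In cSCC replicates 18 to 21, 3 counts correspond to 2.08, 1.32, 3.41 and 0.496 CPM. Lhx2 was not tested, and a decrease in cSCC could not be judged from these counts. Tcf7l1 had 75 counts in NS, 41 in AK and 28 in cSCC, with medians of 1.7, 1.14 and 2.75 CPM and overlapping groups. Its exons share 179 bases with other genes, whose reads cannot be told apart without strand.

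To ask what changes in carcinoma, cSCC was compared with NS over 12097 genes. Foxc1 was called, lower in cSCC, while Sox9, Lgr5 and Cd34 differed by 2.4- to 3.86-fold without passing. Of 8 tested members, 1 was lower and 0 higher, against 7.65% and 11.7% of all genes tested (19.3% in either direction, 1414 genes higher and 926 lower, against 1332 lower of 1957 called when scaled by library size alone), and 3 had an unadjusted p-value under 0.05 from the same test, against 34.0% of all genes. The median log2 fold change of the tested members was -0.55 and that of all genes 0.14. No member had groups that did not overlap, against 2.70% of all genes higher and 5.73% lower in this way.

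Foxc1 had 0, 9.67, 0 and 1.65 CPM in cSCC replicates 18, 19, 20 and 21, and 9.44 to 60.8 CPM in NS. The 3 samples without or nearly without Foxc1 were below all NS samples, and replicate 19 was within the NS range. In replicates 18 and 20, where no count was seen, 3 counts correspond to 2.08 and 3.41 CPM, levels that are still below the lowest NS sample. The log2 fold change was -3.13 with a standard error of 0.89, and edgeR gave an adjusted p of 0.0258. Without cSCC replicate 21, which holds heart genes, it was -2.81 and did not pass (adjusted p = 0.063), and without both replicates 20 and 21 it was -2.41 (adjusted p = 0.14). AK lay between, and the difference of cSCC from AK was -1.54 (95% interval -3.39 to 0.31, adjusted p = 0.205 from the same test). Without cSCC replicate 19, the sample with most Foxc1, the log2 fold change was -4.82 from NS (adjusted p = 0.00884) and -3.25 from AK, which then passed (adjusted p = 0.0288), whereas without both replicates 20 and 21 it was -0.85 from AK (adjusted p = 0.592).

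Sox9 had 6.25, 18, 31.9 and 8.1 CPM in the cSCC samples in order of replicate number. Replicate 20 was above and replicate 18 below all AK samples, the others lay in the AK range, and 2 were below all NS samples. Its log2 fold change was -1.60 from NS (95% interval -3.04 to -0.16, adjusted p = 0.109 from edgeR's test) and -0.15 from AK (95% interval -1.16 to 0.86). The highest cSCC value of Sox9 was that of replicate 20, and Sox9 is also expressed in lung epithelium, whose markers this sample holds, but the part of lung tissue in this value was not tested. Lgr5 had 4.17, 1.32, 0 and 0.331 CPM in cSCC, with 11 counts in all, and was 1.95 lower than in NS on the log2 scale (95% interval of the change -3.94 to 0.05, adjusted p = 0.156 from the same test). Without cSCC replicate 18 the change of Lgr5 was -3.12 and passed (adjusted p = 0.0496). It was -1.48 without replicate 21 (adjusted p = 0.325) and -1.06 without both replicates 20 and 21 (adjusted p = 0.521).

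Cd34 was the member with the highest cSCC levels, at 28.5, 223, 171 and 206 CPM in replicates 18, 19, 20 and 21. Replicates 19, 20 and 21 were above every NS and AK sample, and replicate 18 was below the NS and AK medians. Cd34 was called higher in cSCC than in AK by a log2 fold change of 1.65 with a standard error of 0.47 (adjusted p = 0.0206 in the edgeR fit), and was 1.26 higher than in NS without passing (95% interval 0.04 to 2.49, adjusted p = 0.135 in the edgeR fit). Without cSCC replicate 18 the difference of Cd34 from NS was 1.58 and passed (adjusted p = 0.0444), and without both replicates 20 and 21 it was 0.91 (adjusted p = 0.44). The call against AK was lost without AK replicate 12 (adjusted p = 0.0523), cSCC replicate 19 (0.0562) or cSCC replicate 21 (0.0696), and without both replicates 20 and 21 the difference was 1.29 (adjusted p = 0.153).

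Endothelial markers were higher in cSCC as well. Of 10 endothelial markers, 9 were tested against AK and all 9 were higher in cSCC, and 8 of 9 were higher against NS. Their summed level was 132, 167, 248 and 875 CPM in cSCC replicates 18 to 21, 44.5 to 117 CPM in NS and 47.7 to 110 CPM in AK. The highest sums were those of replicates 20 and 21, which hold lung and heart markers, and the part of these tissues was not tested. Cd34 had another order within cSCC, with its highest level, 223 CPM, in replicate 19. In replicate 18 the endothelial sum was above all NS and AK samples while Cd34 was at 28.5 CPM. Fibroblast markers summed to 1293, 4575, 5646 and 1904 CPM in cSCC against 1143 to 4703 CPM in AK, and 2 of 8 (Fbn1 and Col1a1) were higher in cSCC than in AK. Mast cell markers summed to 12.1 to 925 CPM in cSCC and 106 to 1813 CPM in AK, and 0 of 7 were called in any comparison. The part of these cell types in the Cd34 level was not tested.

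The comparison of cSCC with AK covered 12032 genes. Of 8 tested members, 1 was higher and 0 lower, against 1931 and 1004 of the 12032 genes (8.34% lower, 24.4% in either direction, or 1021 higher and 1356 lower when scaled by library size alone), and 2 had an unadjusted p-value under 0.05 in the edgeR fit, against 38.4% of all genes. The median log2 fold change was 0.13 for the tested members and 0.17 for all genes. No member had groups that did not overlap, against 3.33% of all genes higher and 6.84% lower in this way. Lgr6 was uneven among carcinomas. It had 0.695, 15.4, 3.41 and 20 CPM in cSCC replicates 18 to 21, of which replicates 19 and 21 were above all AK samples. Its difference from AK was 1.77 (95% interval 0.29 to 3.25, adjusted p = 0.0743 from edgeR's test), and that from NS was 0.08 (95% interval -1.36 to 1.53), with a sign that depended on the setting. Lrig1 had 0.695, 9.23, 17.1 and 11.2 CPM, so that 3 of 4 samples were above all AK samples, and differed from AK by 0.96 (95% interval -0.21 to 2.14). Without cSCC replicate 18, Lgr6 and Lrig1 passed, with log2 fold changes of 2.02 (adjusted p = 0.0239) and 1.24 (adjusted p = 0.0412) from edgeR's test. The log2 difference of Lgr6 from AK was 1.02 without replicate 21 (adjusted p = 0.397) and 1.37 without both replicates 20 and 21 (adjusted p = 0.3), and that of Lrig1 was 0.04 without both.

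Nfatc1 had 8.34, 7.03, 18.2 and 16.5 CPM in cSCC, each below the medians of NS (20.2 CPM) and AK (23.5 CPM). The log2 difference was -0.61 from NS (95% interval -1.36 to 0.15) and -0.69 from AK (95% interval -1.44 to 0.06), neither past the threshold. Replicates 18 and 19 were the lowest of all 20 samples. Their heart marker sums were 66.7 and 105 CPM, against up to 37.1 CPM in NS and 76.9 CPM in AK, and their lung marker sums 115 and 13.6 CPM. With replicates 20 and 21 left out, cSCC consisted of replicates 18 and 19 alone, with 12 and 16 counts of Nfatc1. In that edgeR fit Nfatc1 was called lower, with log2 fold changes of -1.35 from NS (adjusted p = 0.0434) and -1.46 from AK (adjusted p = 0.0263). Without replicate 19 alone, the values were -0.41 from NS (adjusted p = 0.476) and -0.48 from AK (adjusted p = 0.354). Runx1 had 41, 71.6, 43.2 and 3.31 CPM in cSCC, 3 of them above all NS samples and the last below all. Runx1 is also a factor of blood cells, and leukocyte markers summed to 267, 476, 613 and 165 CPM in the same samples. Their part in the Runx1 level was not tested. The difference of Runx1 from NS was 0.54 (95% interval -0.52 to 1.61), and without replicate 21 it was 0.94 and passed (adjusted p = 0.0418 from edgeR's test). It did not pass without both replicates 20 and 21 (1.04, adjusted p = 0.054), and it was 0.07 without replicate 19 (adjusted p = 0.948).

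**Figure D4:**
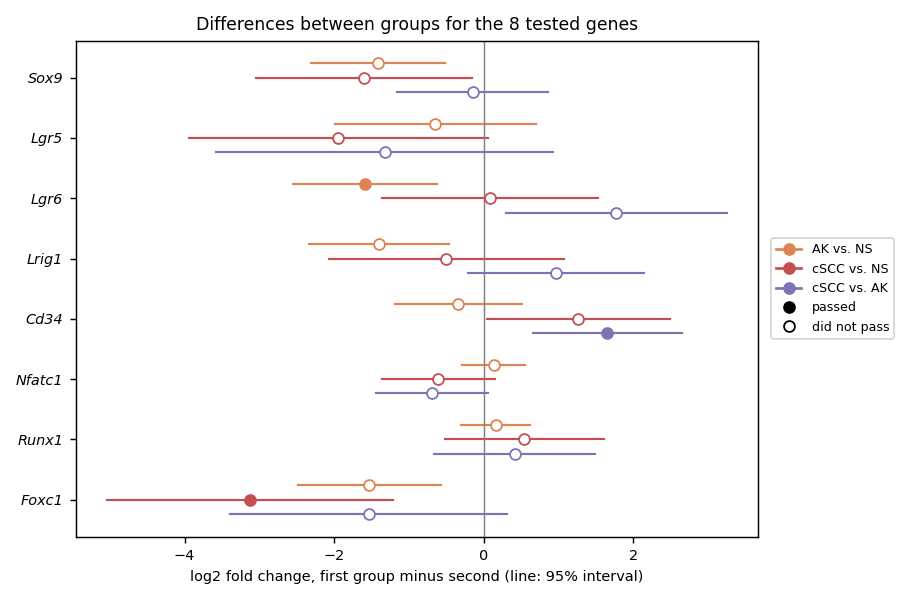
Log2 fold change of the 8 tested genes in the 3 comparisons, with dots for the estimate of edgeR's quasi-likelihood fit and lines for its 95% interval. Filled dots passed (adjusted p under 0.05 and the fold change limits), namely Lgr6 in AK vs. NS (-1.59), Foxc1 in cSCC vs. NS (-3.13) and Cd34 in cSCC vs. AK (1.65).

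Genes that work with the members were followed as 6 lists. In AK vs. NS, 2 of 41 tested genes were called, both lower, a share near the 4.64% of all genes tested. Krt79, a keratin of the sebaceous duct and upper follicle, fell from 1016 ± 430 CPM in NS to 431 ± 169 CPM in AK (log2 fold change -1.26, adjusted p = 0.019 from edgeR's test). NS replicates 1, 2 and 9, which stand apart above, had 1613, 1313 and 1623 CPM of Krt79 against 562 to 790 CPM in the 5 other NS samples. Krt79 also belongs to the sebocyte markers summed above, so it is not separate from that sum. Erbb2, an EGF receptor relative, fell from 42.6 ± 7.53 to 26.7 ± 6.44 CPM (log2 fold change -0.67, adjusted p = 0.0291). In cSCC, 14 of 45 tested list genes were lower than in NS and 2 higher, and 16 of 45 were lower than in AK and 2 higher. Over all genes tested, 7.65% were lower and 11.7% higher than in NS, and 1004 were lower and 1931 higher of 12032 than in AK. Without cSCC replicates 20 and 21, 8 of 50 tested list genes were lower than in NS and 3 higher, against 825 and 733 of all 12762 genes. Set against AK, 11 of 47 were then lower and 4 higher, against 741 and 843 of all 12567 genes.

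Among R-spondin receptors, ligands and ligases, 2 of 4 tested genes were lower in cSCC than in NS, 1 of 3 was lower than in AK, and 0 of 3 were called in AK. Lgr4, the other R-spondin receptor of the family, was at 55.6, 50.5, 47.8 and 36.7 CPM in cSCC, 107 ± 19.1 CPM in AK and 132 ± 65.7 CPM in NS. It was lower in cSCC than in NS (log2 fold change -1.42, adjusted p = 0.0168 from edgeR's test) and than in AK (-1.06, adjusted p = 0.0051). Rnf43, a ligase that removes Wnt receptors and is held back by R-spondin, had 0.207 ± 0.413 CPM in cSCC and 4.47 ± 3.06 CPM in NS (adjusted p = 0.046 from the same test). Its cSCC levels were 0, 0, 0 and 0.827 CPM in replicates 18 to 21, where 3 counts correspond to 2.08, 1.32, 3.41 and 0.496 CPM. NS ranged from 0 to 9.58 CPM, so the groups overlapped near the limit of detection. Among relatives and partners of the members, 6 of 18 tested genes were lower in cSCC than in NS and 7 of 18 than in AK, and 0 were higher. These included Lrig3, a relative of Lrig1 (5.01 ± 6.07 CPM in cSCC, 30.3 ± 15.3 CPM in NS, log2 fold change -2.82), Erbb2 (-2.08) and Erbb3 (-1.75).

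Of the 7 other bulge genes tested against NS, 1 was called higher in cSCC and 1 lower, 0 of 9 were higher and 2 lower when set against AK, and 0 of 6 were called in AK vs. NS. Sfrp1, a secreted Wnt inhibitor, was lower in cSCC (29.6 ± 16.6 CPM against 69.6 ± 23.3 CPM in NS, adjusted p = 0.0498 from edgeR's test), and so was Postn against AK (470 ± 233 against 1145 ± 431 CPM, adjusted p = 0.0477). Ltbp2, a matrix protein gene, was higher (6.51 ± 2.42 against 1.38 ± 1.3 CPM in NS, adjusted p = 0.0201). Of 5 upper follicle genes, Krt79 and Prdm1 were lower in cSCC than in both other groups, with log2 fold changes from NS of -4.67 and -1.79. No other gene of this list was called in cSCC, and its median log2 fold change was 0.12 from NS and -0.43 from AK. Its summed level was 4090, 3981, 1217 and 2722 CPM in cSCC replicates 18 to 21 and 2067 to 3850 CPM in NS. The list as a whole was thus not lower in cSCC than in NS. Of the hair germ and matrix genes, 2 of 5 tested were lower than in NS (Hoxc13 and Dlx3) and 2 of 4 lower than in AK (Dlx3 and Ptch1, the Hedgehog receptor), with none of 5 called in AK vs. NS. Dlx3 was at 2.74 ± 2.4 CPM in cSCC and 24.2 ± 13.8 CPM in NS (log2 fold change -2.98, adjusted p = 0.00658 from the same test).

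The list of factors known from squamous tumour and wound stem cells was mixed. Against NS, 6 genes were tested, of which Fosl1, an AP-1 subunit, was higher in cSCC and Klf4, a differentiation factor, was lower. Against AK, Hmga2 and Fosl1 were higher and Klf4 and Ets2 lower of 7 tested. Hmga2 was at 3.47, 122, 27.3 and 3.31 CPM in cSCC replicates 18 to 21 and 0.989 ± 0.95 CPM in AK (log2 fold change 5.43, adjusted p = 0.0022 from edgeR's test). Replicate 19, the sample highest in Hmga2 and Fosl1 (44.8 CPM), also had the highest Cd34, Runx1 and Foxc1 levels of the cSCC samples. None of 5 tested genes of this list was called in AK vs. NS.

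The epithelial markers moved as follows beside these results. Differentiating keratinocyte markers were lower in cSCC for 5 of 6 genes against NS and against AK, with sums of 48.3 to 1946 CPM in cSCC and 4938 to 15213 CPM in NS, and 1 of 6 (Lor) was lower in AK. Basal keratinocyte markers were lower in cSCC for Cdh1 only of 6 genes in both comparisons, and 0 were called in AK. Their sums were uneven among carcinomas, at 17095, 18212, 5202 and 3825 CPM in cSCC replicates 18, 19, 20 and 21. In NS these sums were 4748 to 16094 CPM and in AK 8894 to 13968 CPM. Sebocyte markers were lower for 5 of 7 tested genes in cSCC against each group and for 2 of 7 (Awat2 and Krt79) in AK, and Awat2 and Mc5r were at 0 counts in cSCC. Of the hair shaft and inner root sheath genes, 1 of 4 (Krt27) was lower in cSCC than in NS and 0 of 1 were called in the other comparisons. Cd3g was the only leukocyte marker called, lower in cSCC of 7 tested against NS and 6 against AK. Fibroblast and endothelial markers had 0 of 8 tested genes each called in AK vs. NS, and 0 of 8 fibroblast markers were called in cSCC vs. NS. Heart markers were higher for 5 of 5 genes against NS and 6 of 6 against AK, and lung markers for 2 of 4 in both comparisons. In AK, 0 of 4 heart markers and 1 of 4 lung markers (Cyp2f2, lower) were called.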

How the data were processed

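Per the submitters' processing notes, reads were trimmed by Trimmomatic 0.36 and mapped by HISAT2 2.0.5, and the authors deposited raw counts per gene symbol for 20 mouse skin samples, which were not normalized. The methods of the study name StringTie and GRCm38, whereas the submitters' notes name featureCounts (1.5.2) and the builds mm9 and hg19, so the counter and build behind the counts are uncertain. The strand setting is not given in the sources used here. Coordinates and exon lengths are from GENCODE M21 on GRCm38, and sequences from RefSeq.

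TMM factors of all 20 samples were used to calculate CPM. Pairs of groups were fitted alone with edgeR 4.0.16 (R 4.3.3, quasi-likelihood test, filterByExpr, Benjamini-Hochberg over all genes tested). The standard error is the log2 fold change divided by the square root of F, and 95% intervals use the t distribution of the fit. Group membership came from the sample titles. Over 62 pairs of samples of 1 group chi-square divided by its degrees of freedom was at least 12.3, so no library was counted as a repeat. The members and gene lists were chosen with earlier results of these data known. Named list genes were the 3 called genes of each list and comparison with the largest change. The low-count filter removed Lhx2 and Tcf7l1. Krt85 and Adgre1 of the marker lists were not analysed here. Alternatives were DESeq2 1.42.0, voom (limma 3.58.1) weighted by sample quality, upper quartile factors, scaling by library size alone, other filters, no fold change limit, all 20 samples in 1 fit, leaving out each sample, and leaving out cSCC replicates 20 and 21 together. The scripts were tested on simulated data. Correlations used scipy 1.17.1.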

Additional observations from a re-analysis of the deposited data

Results flagged for a closer look

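Of 29 sets of values (a gene in a group) searched for a sample far from the others, 3 were found, and chance gives about 1 in 20. Lgr5 in AK replicate 16 was at 13.8 CPM from 23 counts, with the next AK sample at 5.03 CPM. Lhx2 in AK replicate 10, the deepest library, was at 1.2 CPM from 16 counts, with the next at 0.229 CPM. Runx1 in NS replicate 9 was at 13.4 CPM, with the next lowest NS sample at 25.4 CPM. The causes were not tested.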

How the results depend on the processing

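With 1 member called in each comparison, counts moved with the setting. For AK vs. NS the member count was 4 with DESeq2, 3 with library size alone, 2 with upper quartile factors, 0 with no filter beyond 1 count (10 members tested), 0 with at least 10 counts in every sample (3 members tested) and 0 in 1 fit of all 20 samples, and it ranged from 0 to 4 when 1 sample was left out, with 4 reached without NS replicate 8. For cSCC vs. NS it was 0 with limma voom, 0 with at least 10 counts in every sample (where Foxc1 was not tested) and 2 in 1 fit of all samples, and 1 to 3 without 1 sample. For cSCC vs. AK it was 2 with DESeq2, 0 with limma voom, 0 with library size alone and 2 in 1 fit of all samples, and 0 to 3 without 1 sample, with 3 reached without cSCC replicate 18. Without cSCC replicates 20 and 21 the count stayed at 1 in both comparisons, but the gene was Nfatc1 in place of Foxc1 or Cd34. Of list genes, 2 in AK vs. NS became 7 with DESeq2, 4 with limma voom, 4 with at least 10 counts in every sample, 0 in 1 fit of all samples and 1 to 8 without 1 sample. The 16 in cSCC vs. NS became 9 with limma voom, 9 with at least 10 counts and 7 to 20 without 1 sample, and the 18 in cSCC vs. AK became 10 with limma voom and 12 to 26 without 1 sample. Lgr6 in cSCC vs. NS, at 0.08, reversed to -0.38 with limma voom, -0.16 with library size alone, -0.0069 in 1 fit of all samples, -0.26 without cSCC replicates 20 and 21 and down to -0.52 (up to 0.44) without 1 sample. Sox9 in cSCC vs. AK ranged from -0.67 to 0.033 and Runx1 in cSCC vs. AK from -0.089 to 0.74 without 1 sample. No member reversed in AK vs. NS under any setting tried. Foxc1 in cSCC vs. NS (-3.68, adjusted p = 0.248) and Cd34 in cSCC vs. AK (1.38, adjusted p = 0.124) lost their calls with limma voom, and Cd34 with library size alone (adjusted p = 0.0524). Over all alternatives the adjusted p ranged from 0.00875 to 0.178 for Lgr6 in AK vs. NS, 0.000766 to 0.248 for Foxc1 in cSCC vs. NS and 0.00241 to 0.153 for Cd34 in cSCC vs. AK. The number of all genes called ranged from 9 to 1049 for AK vs. NS, where the main fit gave 542, and library size alone moved the median of all genes in cSCC vs. NS from 0.14 to -0.17. The causes were not tested. The pair correlations stayed at 0 passing with a pseudocount of 0.1 and with library size alone. No paired analysis was possible because the labels do not name the mouse of each tissue. Depth limits Lhx2, Tcf7l1 and Lgr5, which have few counts in most samples.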

Other observations

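For each member, the genes with the most similar order of levels over the 20 samples were sought among 12847 genes, by Spearman's rho of log2(CPM + 1), as a description in which group differences and shared libraries enter. Cd34 was closest to Tm4sf1 (rho 0.920) and Sdc2 (0.899), and Tm4sf1 had medians of 48.8 CPM in NS, 35.4 CPM in AK and 186 CPM in cSCC. Foxc1 was closest to Xcl1 (0.931), which had a median of 0 CPM in cSCC, and Setd7 (0.900). Sox9 was closest to Alcam (0.871) and Nck2 (0.848), Lrig1 to Tead1 (0.886) and Taf9b (0.844), and Lgr6 to Tmem109 (0.854) and Klc3 (0.850). Klc3 had medians of 2.99 CPM in NS, 0.909 CPM in AK and 3.72 CPM in cSCC. Runx1 was closest to Lpin2 (0.836) and Slc7a11 (0.824), Nfatc1 to Mpv17l (0.832) and Wdr11 (0.803), and Lgr5 to Ephb2 (0.777) and Fam98b (0.728). The low-count members Tcf7l1 and Lhx2 were closest to Ptprd (0.863) and Akap12 (0.857), and to Gm5849 (0.781) and Calml3 (0.778). No test was made of these likenesses.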
